A study of Homo sapiens with 4 samples.

Results

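The peaks described here lie at the edges of the centromeric gaps, the long stretches around each centromere in which neither list of methylated regions holds a peak. The peaks of the control list and of the knockout list were pooled, and on each autosome except 13, 14, 15, 21 and 22 the longest stretch without a peak was found. Every peak of either list within 1 Mb of either edge of that stretch was taken. This gave 2151 of the 261657 control peaks and 2296 of the 296521 knockout peaks, 4447 of 558178 in all. The regions were thus chosen by the peak positions in these same lists, and the emptiness of the gaps and the place of their edges are not results.

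The lists come from MeDIP-seq, the sequencing of DNA fragments that an antibody against 5-methylcytosine has pulled down. The cells were C42B (C4-2B), a prostate cancer line derived from LNCaP that grows without androgen. The control group, sgC (WT), carried a control guide RNA, and the knockout group, PKCl/i KO (sgPKCl/i), carried a guide against the atypical protein kinase C known as PKCλ/ι. Both groups were untreated and were harvested 48 h after plating, and each had 1 input library and 1 immunoprecipitated library. The study is of 1 cell line, and the labels do not say whether the knockout cells were a clone or a pool. With 1 library per group there is no replicate error, so no test between the genotypes was made, and every difference below is one between these libraries.

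Human centromeres are built on alpha satellite, a short repeat in long tandem arrays, and further satellites and recent duplications lie beside them. Much of this repeat DNA is methylated in most somatic cells. The genome build used by the authors stands for each centromere by a run of unknown bases, and holds fewer copies of many of these repeats than the cells do, so that reads from many copies can align to the copies it has. The peak caller sets each immunoprecipitated pileup against a local background, which above a genome-wide lowest level is taken from the input library. No annotation of this build was used here, so no repeat or gene was placed under a peak, and the stretches are called centromeric from their place and length alone.

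On the 17 chromosomes the longest stretch without a peak measured 21.05 Mb on chromosome 1, 18.2 Mb on chromosome 9 and 11.4 Mb on chromosome 16, the chromosomes known for large heterochromatin blocks beside their centromeres. The other 14 stretches ran from 3.001 Mb on chromosome 8 and 3.002 Mb on chromosome 17 to 3.39 Mb on chromosome 11. Between these lay chromosomes 4 (3.04 Mb), 7 (3.05 Mb), 2 (3.06 Mb), 12 (3.08 Mb), 3 (3.09 Mb), 19 (3.10 Mb), 18 (3.11 Mb), 6 (3.13 Mb), 20 (3.21 Mb), 10 (3.22 Mb) and 5 (3.24 Mb). The second longest stretch of a chromosome was 0.714 to 2.00 Mb, and the longest exceeded it by 1.52 times on chromosome 17 to 18.2 times on chromosome 1. Of the 34 edges, 21 were set by a control peak and 13 by a knockout peak. An edge held a median of 47 control peaks, from 0 to 239, and 50.5 knockout peaks, from 1 to 269. At the lower edge of chromosome 5, "lower" being the side of smaller coordinates, the control had no peak and the knockout had 1, which set the edge.

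A peak's local background was worked out from the deposited values: 1 was added to the pileup, the sum was divided by the fold enrichment, and 1 was taken off. It is given here as a multiple of the lowest background of its list, called the floor. The control floor was 2.92 overlapping fragments and the knockout floor 4.42, or 1.51 times as high. A background of at least 5 times the floor is called high. The commonest backgrounds above the floor were spaced by 0.371 in control and 0.942 in knockout cells, which was taken as the step of 1 input fragment. At that step a background at the floor corresponds to 7.88 input fragments in control and 4.70 in knockout cells. Some backgrounds fall between these steps, such as 1.028 times the control floor, and can rest on more input fragments. By these steps the knockout backgrounds are the coarser ones, and the control input was 1.68 times as deep as the knockout input.

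High background was concentrated at the gap edges in both lists, and far more so in the control. In the control list 228 of the 2151 peaks near an edge (10.6%, 95% exact Clopper-Pearson interval 9.33 to 11.98%) had a high background, where 0.204% of all control peaks did. In the knockout list it was 82 of 2296 (3.57%, interval 2.85 to 4.41%), where 0.192% of all knockout peaks did. The peaks elsewhere on the same autosomes went the other way between the lists, with 218 high backgrounds of 218485 in the control (0.0998%) and 368 of 246947 in the knockout (0.149%). The gap edges thus held 51.1% of the high-background peaks of the control list on these autosomes and 18.2% of those of the knockout list, from 0.975% and 0.921% of the peaks. Intervals of shares cover counting error only, and neighbouring peaks of 1 repeat block are not independent of each other.

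Most peaks near an edge had an ordinary background. The median was 1.27 times the floor in the control, against 1.14 elsewhere on the same autosomes, and the upper quartile was 1.98 against 1.48. In the knockout the median was 1.28 against 1.25 and the upper quartile 1.85 against 1.66. The high end was long: the highest background was 76.2 times the floor in control and 40.4 times in knockout cells, where the highest elsewhere on these autosomes were 57.9 and 59.4 times. Whether the control maximum stands at an upper limit was not tested, and such a limit need not be the same multiple of both floors.

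Within 50 kb of an edge the control background was far above that further out, and the share of high backgrounds was the largest of any distance in both lists. There the 196 control peaks, from 32 edges, had a median of 10.6 times the floor, and 125 of them (63.8%, interval 56.6 to 70.5%) were high. The 140 knockout peaks in the same span, from 29 edges, had a median of 2.22 and 47 high backgrounds (33.6%, interval 25.8 to 42.0%). The distances are not independent of the lists, as 21 edges were set by a control peak and 13 by a knockout peak. Part of the difference between the lists within 50 kb can thus follow from the rule. The bins were not recomputed with gaps from each list's own peaks. The knockout median of 2.22 was close to its 2.19 at 50 to 100 kb, where the control median was 2.28. The medians were 1.52 in control and 1.49 in knockout cells at 100 to 200 kb, and 1.33 and 1.30 at 200 to 500 kb. The share of high backgrounds was larger in the control in each of these bins, with overlapping intervals: 10 of 91 peaks (10.99%, interval 5.40 to 19.3%) against 4 of 86 (4.65%, 1.28 to 11.5%) at 50 to 100 kb, 18 of 145 (12.4%, 7.53 to 18.9%) against 7 of 159 (4.40%, 1.79 to 8.86%) at 100 to 200 kb, and 12 of 584 (2.05%, 1.07 to 3.56%) against 8 of 657 (1.22%, 0.527 to 2.39%) at 200 to 500 kb. From 500 kb to 1 Mb the control median was 1.14 and the knockout median 1.21, near those of 1.14 and 1.27 found between 2 and 5 Mb. The control still had 63 high backgrounds of 1135 peaks (5.55%) between 500 kb and 1 Mb, against 16 of 1254 (1.28%) in the knockout. Those 63 were mostly 1 block on chromosome 4, described below.

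**Figure D1:**
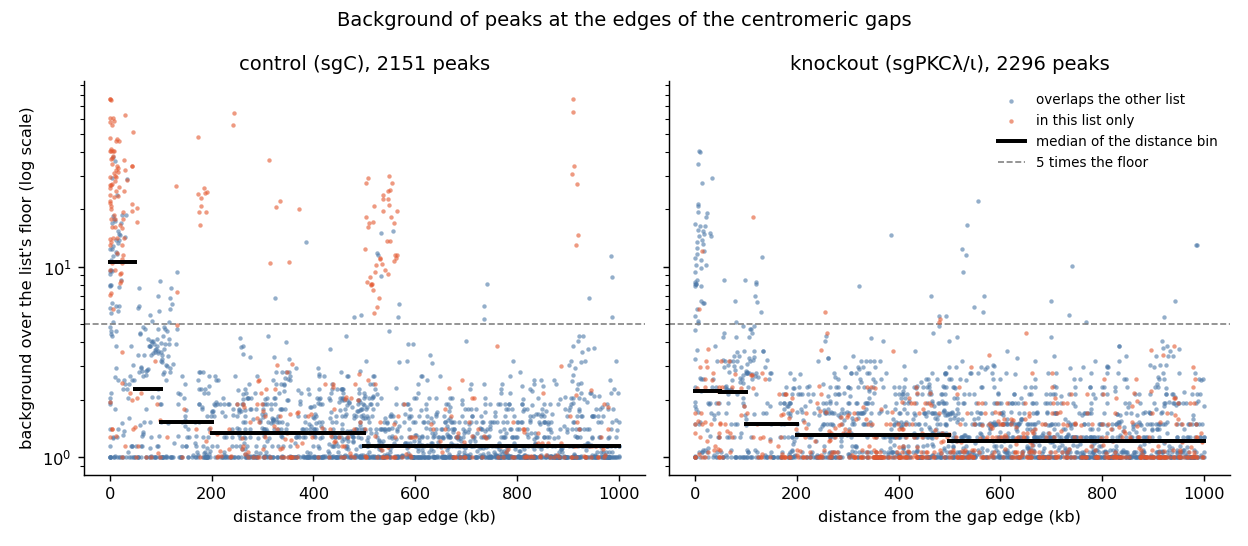
Background over the list's floor (log scale) against distance from the gap edge in kb, for the 2151 control and 2296 knockout peaks. Points are single peaks, coloured by whether they overlap the other list, and black lines are medians of the distance bins, which are 10.6 in control and 2.22 in knockout cells within 50 kb.

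Fold enrichment, the authors' ratio of pileup to background, was lowest where background was highest; at an equal pileup it falls as the background rises, by its definition. Within 50 kb of an edge its median was 3.02 in control and 3.85 in knockout cells, and it reached 5.35 and 5.38 between 500 kb and 1 Mb. Over all peaks near an edge the median fold was 4.98 in the control (interval of the median 4.85 to 5.10), against 5.50 elsewhere on the same autosomes, and 5.09 in the knockout (4.98 to 5.16), against 5.38. High-background peaks near an edge had a median fold of 2.53 in control and 2.64 in knockout cells, with a median pileup of 124.5 and 115.5 fragments. The peaks with less background had a median fold of 5.29 and 5.16 at a pileup of 25 and 36 fragments. The high-background peaks were somewhat longer, with a median of 524.5 bp against 449 bp in control and 501.5 bp against 454 bp in knockout cells. A smaller fold is enough for a call at such levels: at 10 times the floor the lowest listed p needs a fold of 1.62 for control peaks and 1.503 for knockout peaks, and at 30 times the floor 1.36 and 1.29.

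The edges differed greatly from each other. High background was found at 21 of the 34 edges in control and at 18 in knockout cells, and at 11 edges in neither. The 11 edges without any were both edges of chromosomes 3 and 12, the lower edges of chromosomes 5, 7, 9 and 16, and the upper edges of chromosomes 2, 4 and 11. At 5 edges only the control had high-background peaks: the lower edges of chromosomes 6, 10 and 11 and the upper edges of chromosomes 6 and 7. At 2 edges only the knockout had them, with 1 peak each: the upper edge of chromosome 16 and the lower edge of chromosome 18. Both overlapped a control peak below the cut of 5 times the floor. The backgrounds were 5.75 in knockout against 3.93 in control cells on chromosome 16, and 5.54 against 4.82 on chromosome 18. The control had the larger number of high-background peaks at 18 edges and the knockout at 5. The median over all peaks of an edge reached 2 times the floor at 6 edges in the control, which were chromosome 11 lower (17.8), 7 upper (15.4), 4 lower (7.33), 2 lower (6.35), 1 upper (3.14) and 1 lower (2.54). In the knockout it did so at 3 edges, chromosome 1 upper (3.06), 2 lower (2.55) and 1 lower (2.27).

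**Figure D2:**
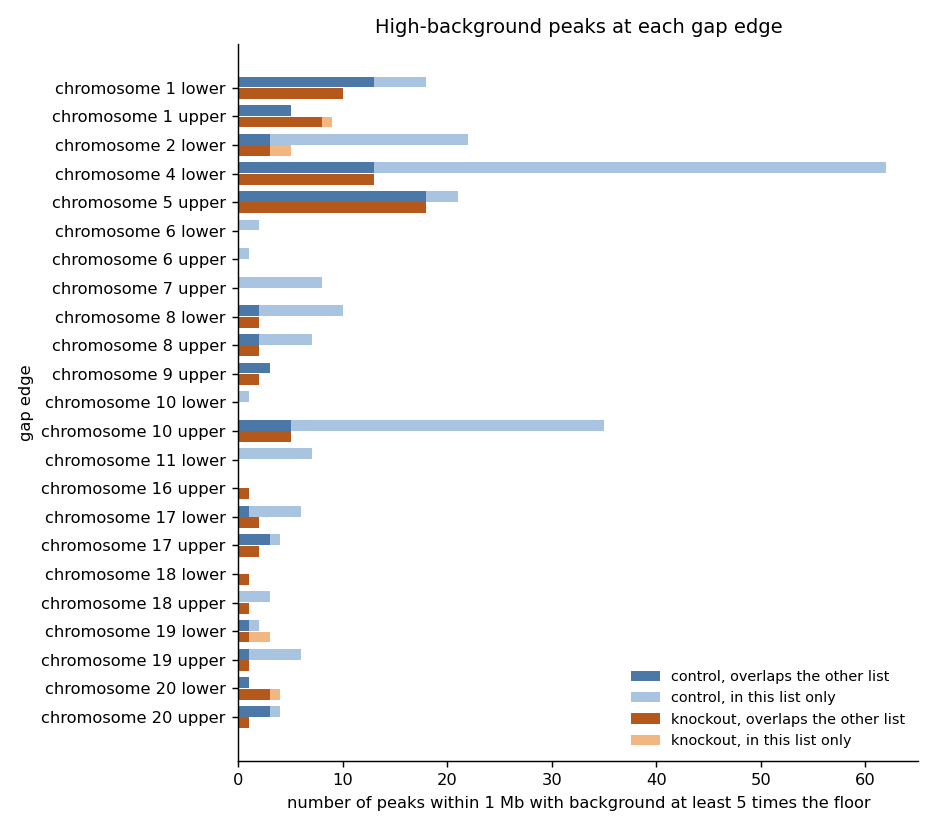
Number of peaks with a background of at least 5 times the floor within 1 Mb of each gap edge, for the 23 edges that had any. Bars are split by overlap with the other list: the lower edge of chromosome 4 had 62 in control and 13 in knockout cells, while the upper edge of chromosome 5 had 21 and 18.

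The lower edge of chromosome 4 held the most high backgrounds of the control, 62 of 106 peaks, and 13 of 53 knockout peaks. Its main block lay 493 to 565 kb from the edge, at chr4:49093889-49166154, where all 46 control peaks had a high background, with a median of 13.1 and a maximum of 30.1 times the floor. The knockout had 6 peaks in the same 72.3 kb, all of high background with a median of 11.9, and all 6 overlapped a control peak. The other 40 control peaks of the block had no counterpart. Nearer the edge, the blocks at chr4:49272469-49335570 and chr4:49634423-49659228 held 6 and 9 high-background control peaks, of which 4 and 5 were in the control list only, beside 2 and 4 high-background knockout peaks. A further block, at chr4:49525598-49526264, held 1 high-background peak in each list, at 9.39 times the floor in control and 11.3 times in knockout cells, and neither was list-only. The knockout list thus had peaks in every high-background block of this edge, and fewer of high background in all but this last one.

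The upper edge of chromosome 10 had 35 high backgrounds among 90 control peaks and 5 among 62 knockout peaks. The first block began at the edge itself, at chr10:42355080-42409527, with 23 control peaks at a median of 13.1 times the floor and a maximum of 62.3. Its first control peak set the edge, so the place of the block follows from the rule. All 5 knockout peaks of this block lay in its first 18.1 kb, with a median background of 12.1, and each overlapped a control peak. A further block, at chr10:42527780-42599930, held 12 control peaks with a median background of 24.2, a maximum of 64.0 and a median fold of 1.86. No knockout peak lay in its 72.2 kb.

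The lower edge of chromosome 2 showed the same split. All 17 control peaks at chr2:92281072-92325804 had a high background, with a median of 34.6 times the floor and folds of 1.66 to 3.15, and the knockout list had no peak there. A weaker block 480 to 568 kb from the edge, at chr2:91757325-91845378, was found in both lists, with 5 high backgrounds each, whose medians were 5.71 times the control floor and 5.47 times the knockout floor.

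The upper edge of chromosome 5 behaved otherwise. Within 33.8 kb of it, at chr5:49406762-49440603, the control had 21 peaks and the knockout 18, all of high background, and the medians were 14.3 and 14.7 times the floor. Only 3 of the control peaks and none of the knockout peaks lacked a counterpart. The lower edge of chromosome 1 lay between: 18 of 80 control peaks at chr1:121352867-121485573 were high, 5 of them in the control list only, and 10 of the 75 knockout peaks in nearly the same span were high, all of them shared.

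**Figure D3:**
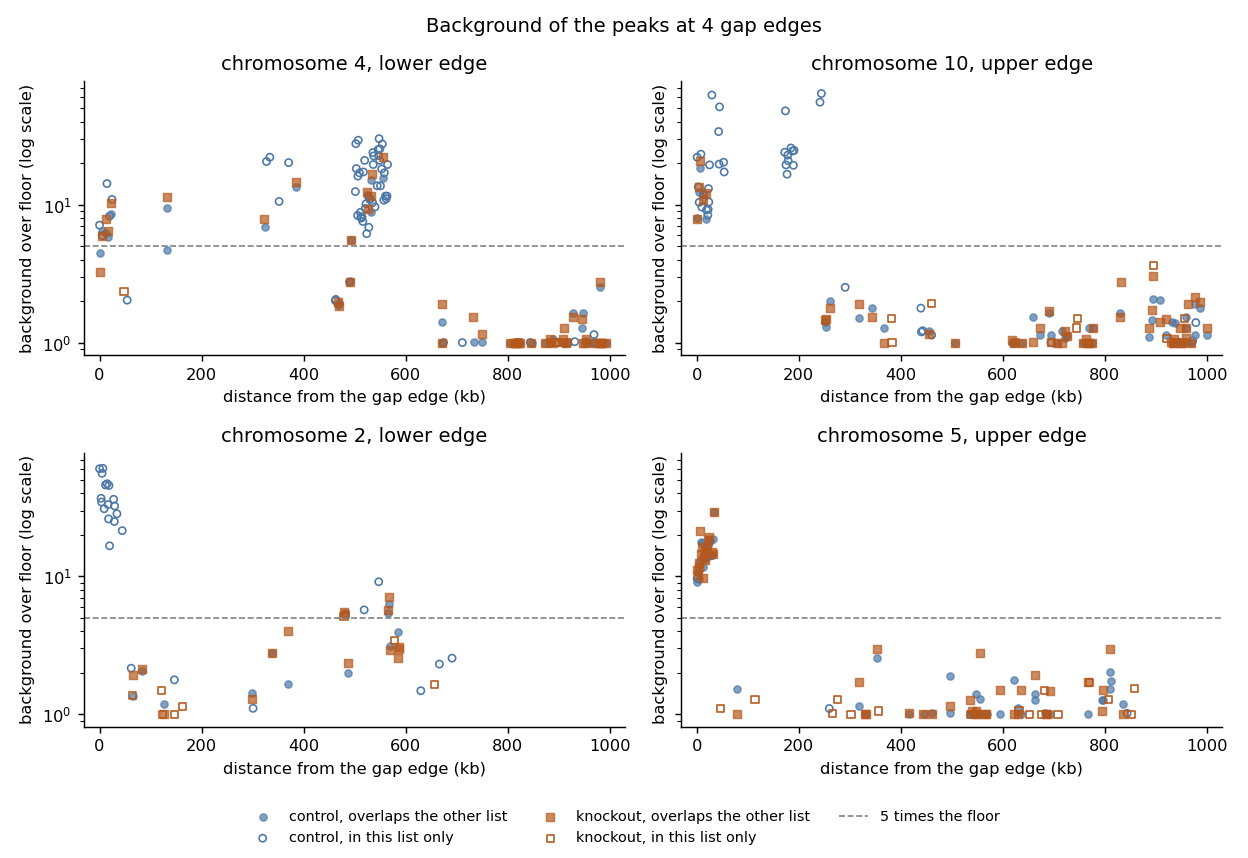
Background over floor (log scale) against distance from the edge in kb at 4 gap edges. Filled symbols overlap a peak of the other list and open symbols do not; the control block nearest the edge of chromosome 2 (17 peaks) has no knockout peak, whereas on chromosome 5 both lists fill the block (21 control and 18 knockout peaks).

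Some smaller blocks lay in the control list alone or nearly so, and others were shared. On chromosome 11 all 7 control peaks of the lower edge, at chr11:51579310-51590438, were high, with a median of 17.8 and a maximum of 47.6 times the floor. The single knockout peak of that edge stood at 1.15 times the floor. On chromosome 7, 7 peaks at chr7:61966997-61979356, 907 to 919 kb from the upper edge, had a median of 30.6 and a maximum of 76.2, and the highest of the 5 knockout peaks of that edge was 1.94. The lower edge of chromosome 17 (5 peaks, median 32.2), the upper edge of chromosome 18 (3 peaks, median 29.5) and the lower edge of chromosome 6 (2 peaks, median 75.4) had such blocks within 20 kb of the edge, with no knockout peak inside them. A control peak of each of these blocks set its edge, so the nearness of the blocks to the edge follows from the rule. On chromosome 19, 5 of the 6 high-background control peaks of the upper edge were in the control list only, and the knockout had 1 peak there, at 19.3 times the floor. Around the gap of chromosome 8 the control had 10 high backgrounds at the lower edge and 7 at the upper, of which 8 and 5 were in the control list only, and the knockout had 2 at each edge, all shared. The shared ones were at the upper edge of chromosome 1, where none of the 5 high-background control peaks lacked a counterpart and the knockout had 9 such peaks, and at the upper edge of chromosome 9 (3 control peaks, none of them control-only). At the upper edge of chromosome 17, 1 of 4 was control-only, and at the upper edge of chromosome 20, 1 of 4.

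The 5 highest backgrounds of the control peaks near an edge were all in the control list alone. They stood at chr1:121483790-121485573 (pileup 595, background 76.2 times the floor, fold 2.67), chr7:61968541-61969838 (597, 76.2 and 2.67), chr6:58778314-58779627 (600, 75.9 and 2.70), chr6:58776078-58777622 (528, 74.9 and 2.41) and chr7:61970009-61970709 (356, 65.2 and 1.86). The exact Poisson interval of the pileup of 600 ran from 553 to 650 fragments, which holds only for a count without an upper limit. The nearest knockout peak was 4.22 kb away for the peak on chromosome 1 and 45.0 to 71.1 kb away for the others. The pileups of 595 and 597 in 2 places on different chromosomes came with backgrounds that agree to 3 digits, 222.6 fragments each. The pileup of 600 was the highest of the control peaks near an edge, whose shortest length was 300 bp. How duplicate reads were treated is not given, and whether such pileups and backgrounds stand at an upper limit was not tested. They may therefore not measure the level at these places. Among the knockout peaks near an edge the 5 highest backgrounds, 27.5 to 40.4 times the floor, all overlapped a control peak. Of these, 4 lay within 16 kb of the gap of chromosome 8, and the fifth was chr5:49439821-49440432 (pileup 248, background 29.4 times the floor, fold 1.90).

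Whether a peak near an edge was found in both lists varied with its background, and in opposite ways in the 2 lists. In the control 401 of the 2151 peaks (18.6%) overlapped no knockout peak, where 12.1% of all control peaks did not. In the knockout 568 of 2296 (24.7%) overlapped no control peak, where 23.9% did not. Below 2 times the floor, the list-only share of the control was 13.1% (interval 11.5 to 14.8%), near the 12.5% elsewhere on these autosomes. At 2 to 5 times it was 11.5% against 6.34%, at 5 to 10 times 34.4% (22.9 to 47.3%) against 12.7%, and from 10 times upwards 132 of 164, or 80.5% (73.6 to 86.3%), against 30.9%. In the knockout the list-only share fell instead, from 27.2% below 2 times the floor to 16.5% at 2 to 5 times. It was 9.52% at 5 to 10 times (4 of 42 peaks, interval 2.66 to 22.6%). From 10 times upwards it was 5.00% (2 of 40 peaks, interval 0.611 to 16.9%). The intervals of these higher classes overlap, and their shares rest on few list-only peaks. Elsewhere on the autosomes the knockout shares were 25.3%, 13.1%, 15.7% and 25.3%.

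The split was also present among strong peaks, those with a −log10 q of at least 10. Near the gap edges 155 of 1252 strong control peaks (12.4%, interval 10.6 to 14.3%) lacked a knockout peak, where 3.24% of all strong control peaks did. For the knockout it was 265 of 1666 (15.9%, interval 14.2 to 17.8%), where 14.9% of all strong knockout peaks lacked a control peak. Of the 155, 118 had a high background. Among strong control peaks near an edge with less background, 37 of 1069 (3.46%) lacked a counterpart, close to the share in the list as a whole.

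Of the 228 high-background control peaks near an edge, 154 (67.5%) lacked a counterpart, where 12.1% of all control peaks did. Elsewhere on the same autosomes 40 of 218 high-background control peaks (18.3%) lacked one. The 154 had more pileup and more background than the 74 shared ones near an edge, and a lower fold. Their median pileup was 47.9 times the floor, their median background 20.9 times the floor and their median fold 2.34. The 74 shared ones had a median pileup of 32.7 and a background of 9.01 times the floor, and a fold of 3.22. The median −log10 q was 15.3 for the 154 and 24.5 for the 74. Of the 154, 11 had a knockout peak within 1000 bp. The lists give no value where no peak was called, so the knockout's level at these places was not measured, and whether its immunoprecipitate was lower there, its background higher, or its reads handled differently cannot be told apart.

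Of the 82 high-background knockout peaks near an edge, 6 (7.32%) were in the knockout list only, where 23.9% of all knockout peaks were. Elsewhere on the same autosomes it was 66 of 368 high-background knockout peaks (17.9%). The highest of the 6 was chr20:26189194-26189570, 115 kb from the lower edge, with a pileup of 170 fragments, a background of 18.3 times the floor and a fold of 2.09. Another 2 lay 8.93 and 14.4 kb from the lower edge of chromosome 19, at 5.96 and 12.1 times the floor. The remaining 3, on chromosomes 1 and 2, had backgrounds of 5.11 to 5.75 and a control peak less than 1 kb away.

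Levels could be compared directly where 1 peak of each list overlapped only the other, which gave 1591 pairs near the edges and 206556 in all. Over the pairs near the edges, the median log2 ratio of floor-scaled pileup, knockout over control, was -0.01 (95% interval of the median -0.04 to 0.00), against 0.04 elsewhere on the same autosomes. The pileup was lower in the knockout in 827 of the 1591 pairs (52.0%), where it was lower in 45.4% of all pairs. The fold was lower in 772 (48.5%), where 46.4% of all pairs were, and the background in 764 (48.0%), where 39.6% of all pairs were. The median log2 ratio of background was 0.00 near the edges and 0.04 elsewhere.

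Where the background was high in both lists, the knockout pileup was mostly the lower one. These 55 pairs were taken for their background and hold only places called in both lists. In them the median log2 ratio of pileup was -0.33 (interval -0.40 to -0.25), or 0.797 times the control, and 51 of the 55 were lower in the knockout. The background went slightly the other way, with a median log2 ratio of 0.11 (0.04 to 0.16), and the fold followed with -0.43 (-0.56 to -0.33) and 50 of 55 pairs lower. The 103 high-background pairs elsewhere on the same autosomes had a median pileup ratio of 0.00 (-0.04 to 0.06), with 52 lower, and a background ratio of 0.18. The ratio of pileups moved with background near the edges, taken as the geometric mean of both lists. It was 0.01 below 2 times the floor, -0.10 at 2 to 5 times, -0.29 at 5 to 10 times and -0.32 from 10 times upwards. These intervals cover the scatter of pairs in these libraries, not the error between replicates.

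The lower pileup was seen at most edges that had such pairs. All 15 pairs of the upper edge of chromosome 5 were lower, with a median of -0.23, as were all 12 of the lower edge of chromosome 4 (-0.47), all 9 of the lower edge of chromosome 1 (-0.34), all 5 of the upper edge of chromosome 10 (-0.50) and all 4 around the gap of chromosome 8 (-0.47 at the lower edge and -0.51 at the upper). The pair nearest the gap on chromosome 5, chr5:49406762-49407580 in the control, had a pileup of 137 fragments in control and 182 in knockout cells, which are 46.9 and 41.1 times the floors. On chromosome 4, the control peak chr4:49125174-49126186 had 118 fragments and its knockout partner 119, or 40.4 and 26.9 times the floors, at backgrounds of 15.1 and 16.6 times. The 4 exceptions were 2 pairs of the lower edge of chromosome 2, at 0.18 and 0.54, and 1 pair each at the upper edges of chromosomes 9 (0.41) and 20 (0.09). On chromosome 2 they were the control peaks chr2:91759445-91759808, with 35 control and 60 knockout fragments, and chr2:91845028-91845378, with 36 and 79.

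**Figure D4:**
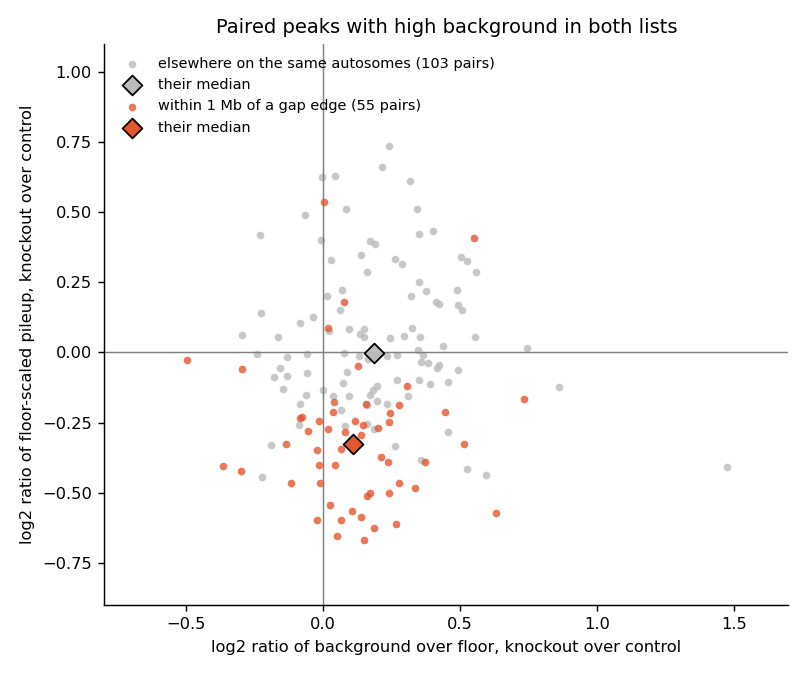
Log2 ratio of floor-scaled pileup against log2 ratio of background over floor, knockout over control, for paired peaks with a high background in both lists. Each point is 1 pair and diamonds are medians: the 55 pairs near a gap edge have a median pileup ratio of -0.33 and the 103 elsewhere one of 0.00.

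Ranked by fold rather than by background or −log10 q, the first peaks near the edges were at or near the floor and were shared. The highest folds were at chr18:19190293-19191562, 673 kb from the upper edge, with a pileup of 59 and a fold of 15.3 in the control, and with a pileup of 125 and a fold of 23.2 in the knockout. On chromosome 20, chr20:25643361-25643950 had 59 fragments in control and 102 in knockout cells, at folds of 15.3 and 19.0. The other 3 control peaks of highest fold (14.01 to 15.2, on chromosomes 16 and 20) and the other 3 knockout ones (15.1 to 17.7, on chromosomes 18 and 20) also lay 468 to 917 kb from an edge at a background of at most 1.11 times the floor. All of these overlapped a peak of the other list.

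The strongest list-only peaks near an edge lay at different backgrounds in the lists. By −log10 q, the first 5 of the control were 4 of its 5 highest backgrounds near an edge and chr10:42400018-42400878 (pileup 394, background 51.1 times the floor, fold 2.62). Those of the knockout had backgrounds of 1.06 to 2.36 times the floor. The first, chr2:95401206-95401844, lay 11.3 kb from the upper edge of chromosome 2 with a pileup of 102 fragments (exact Poisson interval 83.2 to 123.8) and a fold of 12.1, and the nearest control peak was 3.09 kb away. The others were on chromosomes 3, 9, 17 and 18, with pileups of 59 to 71 fragments and folds of 6.31 to 10.5.

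Pairs were also ranked by their ratio of background alone. The largest ratio of background was at chr12:34372046-34373045, with 1.60 times the floor in control and 4.90 in knockout cells, a log2 ratio of 1.61, while the pileups of 50 and 79 fragments were 17.1 and 17.9 times the floors. The other 4 of the largest, on chromosomes 6, 9 and 16, had log2 ratios of 1.37 to 1.55. The smallest was on chromosome 8 at -1.19, and at chr1:120693871-120694313 it was -1.18, with 3.17 times the floor in control and 1.40 in knockout cells and a pileup ratio of -0.03. The other 3 of the smallest, on chromosomes 1, 8 and 16, were -1.10 to -0.94. None of these 10 pairs had a high background in either list, and their backgrounds can rest on few input fragments.

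The limit of 1 Mb cut through ordinary peaks. At the 33 edges with a control peak, the last one inside had a median background of 1.05 times the floor and a fold of 4.84, with 3 high backgrounds, and the first one outside at the 34 edges had 1.27 and 5.02, with 1. For the knockout the values were 1.28 and 4.49, with 1 high background, inside, and 1.17 and 4.85, with 1, outside. The control peak closest to the limit on the inside lay 999.9 kb from the lower edge of chromosome 10, with a background of 1.14 and a fold of 4.84.

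These counts depend on the window and on single chromosomes. Without chromosome 4 the control share of high backgrounds near the edges was 8.21%, and within a window of 2 Mb it was 5.28% in control and 2.09% in knockout cells. A block whose peaks the caller joins or splits differently in the 2 lists changes a count of peaks, and under a 50% reciprocal overlap the high-background knockout peaks without a counterpart numbered 24 instead of 6.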

How the data were processed

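MeDIP-seq peak lists of 1 immunoprecipitated library per genotype were used. The submitters' processing notes name hg19, BWA, FastQC and MACS2; their versions and settings, and how duplicate reads were treated, are not given in the sources used here. Per the file headers, the deposited lists give each peak's pileup signal in fragments, its fold enrichment (a ratio) and −log10 p and −log10 q, called per library. The background worked out from them was checked: a Poisson tail at that background came within 0.000573 (control) and 0.000329 (knockout) of every listed −log10 p. Library totals are not listed, so pileups were divided by each list's floor. Peaks of both lists with at least 1 common bp counted as shared, and high-background peaks less than 100 kb apart were joined into a block. Regions were named by rule among the peaks near an edge: the 5 highest backgrounds, folds and list-only strong peaks of each list, and the 5 largest and smallest background ratios. Blocks, high-background pairs and list-only high-background peaks were chosen after their values were seen. The members and lists were chosen with earlier results of these data known. Intervals of medians are from order statistics. Scripts (Python 3.11.15, pandas 2.3.3, scipy 1.17.1) were tested on simulated lists. Sequences and genes under the peaks were not analysed here.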

Additional observations from a re-analysis of the deposited data

How the results depend on the processing

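No paired analysis was possible because there was 1 library per group. Of 176 alternative values for 21 results, 114 kept within the interval of the value as reported or, for counts, within 1.5 times, 62 moved and 0 reversed. With a window of 500 kb instead of 1 Mb, high backgrounds made up 16.2% of the control and 6.33% of the knockout peaks, the median background 1.53 and 1.49, the median fold 4.60 and 4.64, edges with a median of at least 2 times the floor 11 and 6, strong list-only peaks 100 and 107, the control's median scaled pileup 9.58, its share overlapping the other list 77.3% and the paired log2 pileup ratio -0.07. With 2 Mb, the shares were 5.28% and 2.09%, the folds 5.26 and 5.26 and the edges 3 and 1. The control's median background was then 1.20, its scaled pileup 8.55 and its overlap 85.0%, while the knockout had 612 strong list-only peaks and 11 high-background ones. The paired ratios were 0.01 for pileup and 0.00 for background. With peaks of −log10 q of at least 10 alone, the control had 14.6% high backgrounds, a fold of 6.12, a scaled pileup of 11.3 and an overlap of 87.6%. The knockout had a background of 1.27, a fold of 5.90, a scaled pileup of 9.27, an overlap of 84.1% and 3 high-background list-only peaks, and the paired pileup ratio was -0.04. Without chromosome 4, which is also the control chromosome with the most high backgrounds, the control had 8.21% high backgrounds and an overlap of 83.4%. Without chromosome 1, which held the most in the knockout, its background was 1.27, its scaled pileup 7.91 and its edges 1. High backgrounds set at 3 times the floor were 14.9% and 7.32%, with 18 knockout-only and a paired log2 fold ratio of -0.23. Set at 10 times they were 7.62% and 1.74%, with 2 knockout-only. An edge median of 5 times the floor left 0 knockout edges. Under 50% reciprocal overlap the overlaps were 72.2% and 67.6%, with 244 strong control-only and 24 high-background knockout-only peaks, and requiring no peak within 1000 bp left 3 of the latter. Strong set at a −log10 q of 5 gave 355 and 529 list-only peaks, and at 20 gave 55 and 31. Centred on all pairs, the paired ratios were -0.05 for pileup and -0.03 for background. Results on list-only high-background peaks and on pairs with a high background in both lists, with all their alternatives, were added after seeing the data. Depth limits the comparison where background is near the floor, which can rest on few input fragments, and the lists hold no value where no peak was called.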

Other observations

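The X chromosome, which the rule leaves out, had a gap of 3.10 Mb with high background on both sides in both lists. Its lower edge had 10 high-background peaks of 19 in the control and 10 of 20 in the knockout, and its upper edge 23 of 34 and 22 of 36. Of these, 1 control peak and 0 knockout peaks lacked a counterpart. On the whole X chromosome, not at its gap edges alone, 35 pairs had a high background in both lists. Their median log2 ratio of pileup was -0.35 (95% interval of the median -0.39 to -0.30), and all 35 were lower in the knockout. Their median log2 ratio of background was -0.02 (-0.11 to 0.01). On chromosome 21 the lower edge of the 3.16 Mb gap had 5 high backgrounds in the control, with a maximum of 22.5 times the floor, and 7 in the knockout, with a maximum of 9.79. The longest stretches without a peak on chromosomes 13, 14, 15 and 22 measured 0.411 to 1.95 Mb and had no high background at their edges in either list. Their lower edges were at chr13:58226490, chr14:82031427, chr15:86532294 and chr22:34316205. These stretches are not taken as centromeric, so the peaks beside the centromeres of these chromosomes were not examined.

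Among the peaks outside the part described here, the knockout list had more high backgrounds than the control list on several chromosomes. There were 70 against 29 on chromosome 7, 38 against 14 on chromosome 16 and 32 against 8 on chromosome 19. On chromosome 13 there were 25 against 4, but the rule leaves this chromosome out, so any peaks beside its centromere are included. On chromosome 1 the counts were 72 and 70. The control had more on chromosomes 2 (12 against 5), X (38 against 37) and Y (14 against 9). It also had 7 on the mitochondrial genome, where the knockout had none. These counts are not shares of the peaks of a chromosome, and the knockout list is the longer one, with 296521 against 261657 peaks. Over the whole lists, high backgrounds made up 0.192% of the knockout and 0.204% of the control peaks.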
